A study of Mus musculus with 55 samples.

Results

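Gene expression in Cdx1-4 mouse tailbuds was compared with that in WT tailbuds at embryonic day 8.0. The comparison used 6 of the 55 samples of the series, 3 Cdx1-4 and 3 WT libraries, chosen by the group in their column headings. The heading of the Cdx1-4 library tagged blue-1 spells the group Cd4_1-4; it was read as Cdx1-4, since it matches no other group. RNA came from tailbuds dissected under the microscope, 10 ng per library, and was read by CEL-seq, which counts the 3′ ends of transcripts. The other tailbud group, 3 libraries called Triple, served to estimate the spread and is given beside single genes. The labels name the groups only as Cdx1-4, Triple and WT and give neither alleles, strain nor the number of embryos per library, and they do not say whether the libraries of a group came from separate embryos. P-values and intervals of log2 differences below therefore rest on the spread between these libraries, which may be technical. Within each group the libraries are told apart by the tags green-1, blue-1 and blue-2 of their column headings, and their values are given in that order.

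Cdx1, Cdx2 and Cdx4 encode related homeodomain transcription factors of the posterior embryo. They act downstream of Wnt and Fgf signals in the progenitors that lengthen the trunk and tail, and are known for activating central Hox genes and for overlapping functions in axis elongation. Mouse mutants of single Cdx genes have milder axial defects than combined mutants, with Cdx2 known as the member whose loss is most severe.

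Promoter windows are shown for Cdx4, whose counts were nearly absent in Cdx1-4, for Frzb and Meg3, which were called lower and higher in Cdx1-4, and for Hoxb8, a Hox gene that was not called. Each holds 250 bases before and 50 after a RefSeq start site on GRCm38.p6, in the direction of the gene. The Hoxb8 window lies inside the annotated gene (11:96279401-96285325), so its start site is not the outermost 5′ end of that gene. Capitals mark TTTAT on either strand (ATAAA on the other), the core letters of the motif that Cdx proteins bind; ATAAA is also part of the TATA box letters TATAAA.
Cdx4: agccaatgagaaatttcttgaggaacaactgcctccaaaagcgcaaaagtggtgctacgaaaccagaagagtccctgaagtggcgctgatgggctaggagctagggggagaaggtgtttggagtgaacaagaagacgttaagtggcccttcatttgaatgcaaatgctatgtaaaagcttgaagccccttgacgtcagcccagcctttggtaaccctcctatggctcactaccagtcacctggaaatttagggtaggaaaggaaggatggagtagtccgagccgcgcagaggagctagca
Frzb: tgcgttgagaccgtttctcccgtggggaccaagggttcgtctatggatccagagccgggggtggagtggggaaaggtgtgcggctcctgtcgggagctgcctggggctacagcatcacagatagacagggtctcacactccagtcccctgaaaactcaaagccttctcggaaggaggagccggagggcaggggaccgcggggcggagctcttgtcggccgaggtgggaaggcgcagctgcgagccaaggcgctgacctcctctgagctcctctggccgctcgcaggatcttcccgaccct
Meg3: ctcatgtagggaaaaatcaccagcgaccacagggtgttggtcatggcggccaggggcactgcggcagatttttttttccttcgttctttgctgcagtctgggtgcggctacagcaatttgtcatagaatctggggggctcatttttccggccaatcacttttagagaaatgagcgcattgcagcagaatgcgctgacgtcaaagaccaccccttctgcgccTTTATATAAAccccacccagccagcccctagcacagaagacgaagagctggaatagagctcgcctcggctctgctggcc
Hoxb8: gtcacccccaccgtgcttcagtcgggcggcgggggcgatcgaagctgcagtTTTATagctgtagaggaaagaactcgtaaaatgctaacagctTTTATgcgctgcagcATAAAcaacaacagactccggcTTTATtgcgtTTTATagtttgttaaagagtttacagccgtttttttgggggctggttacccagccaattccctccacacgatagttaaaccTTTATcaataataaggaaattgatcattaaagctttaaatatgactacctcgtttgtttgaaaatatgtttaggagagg
The windows lie at chrX:103321148-103321447 on the plus strand for Cdx4, chr2:80447347-80447646 on the minus strand for Frzb, chr12:109540746-109541045 on the plus strand for Meg3 and chr11:96281655-96281954 on the plus strand for Hoxb8. The letters occurred 0 times in the windows of Cdx4 and Frzb, 2 times in that of Meg3, where they overlap TATAAA, and 6 times in that of Hoxb8. One or more matches were found in 40.9% of 27025 gene windows and in 23.3% of the 4583 windows of genes tested here. A match is a description of these letters and no match says nothing of binding elsewhere.

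The Cdx1-4 libraries held 497589 to 759197 counts and the WT libraries 395632 to 854852, and 3 counts in a single library amounted to 4.07 to 6.24 CPM in Cdx1-4 and 3.66 to 7.91 CPM in WT. CPM are counts scaled by library totals and TMM factors. Of 14602 genes in the table, 6003 had enough counts to be tested and 8599 did not. Among tailbud markers, T, Cdx2, Tbx6, Fgf8 and Hoxb9 were present in all 6 libraries, whereas Nkx1-2 held 0, 4 and 0 counts in Cdx1-4 against 2, 0 and 0 in WT, and Msgn1 held 0 or 1 count in every library. The library Cdx1-4 blue-1 stood apart in embryonic globins of primitive red cells: Hba-x held 0, 128 and 7 counts in Cdx1-4 against 17, 0 and 5 in WT, Hbb-bh1 0, 63 and 7 against 6, 4 and 6, and Hbb-y 0, 46 and 1 against 2, 0 and 0. The 23 blood and endothelial genes summed to 190, 554 and 146 CPM in Cdx1-4, against 202, 187 and 207 CPM in WT. Without this library 11 genes were called: AA465934 and Ube2l6 lost their call, and 5 genes gained one. Among these, Aldh1a2 differed by 0.72 ± 0.14 on the log2 scale (SE; edgeR adjusted p = 0.0056), Arg1, which encodes an arginase, by 1.24 ± 0.29 (edgeR adjusted p = 0.0268) and Ube2s, a ubiquitin conjugating enzyme of mitosis, by -1.41 ± 0.28 (edgeR adjusted p = 0.0059). These were named after their values were seen, and the others are an unnamed RIKEN transcript and a predicted gene. In such dissected tissue, fewer cells of a type and less RNA per cell cannot be told apart.

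Cdx4 and Cdx1 were lower in Cdx1-4 tailbuds, and the Cdx2 difference did not pass the test. Cdx4 (X) held 0, 1 and 0 counts in Cdx1-4 against 33, 16 and 19 in WT. Every WT library was thus far above every Cdx1-4 library. Pooled, 1 count in Cdx1-4 stood against 68 in WT, a WT to Cdx1-4 ratio of 82.8 per library size with an exact 95% interval of 14.4 to 3320, which covers counting error only; the Triple libraries held 0 counts. Cdx1 (18:61018862-61036199) had 59.6, 44.2 and 81.1 CPM in Cdx1-4, against 176, 153 and 217 CPM in WT, and the groups did not overlap. Its log2 difference was -1.60 (95% interval -2.04 to -1.16; edgeR quasi-likelihood test with Benjamini-Hochberg adjusted p = 5.1e-06), which leaves 33.0% of the WT level (24.4% to 44.6%). The Cdx1 counts that remained are 3′ end counts and do not tell whether an allele was deleted in part; the labels do not say which part of the gene a mutation removes.

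Cdx2 (5:147300900-147307249) had 176, 173 and 268 CPM in Cdx1-4, against 269, 174 and 195 CPM in WT. The groups overlapped, with the highest value of each almost equal. The log2 difference was -0.12 (95% interval -0.46 to 0.22; edgeR adjusted p = 0.92), so that a change of Cdx2 beyond 1.37-fold in either direction lay outside the interval. In Triple tailbuds Cdx2 had 87.1, 117 and 97.1 CPM, and the Triple minus WT log2 difference was -1.12 (edgeR adjusted p = 1.5e-04); both comparisons share the 3 WT libraries. T, the brachyury gene needed for the mesoderm of the growing axis, had 174, 180 and 204 CPM in Cdx1-4, against 210, 208 and 164 CPM in WT, a log2 difference of -0.09 (-0.39 to 0.22).

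**Figure D1:**
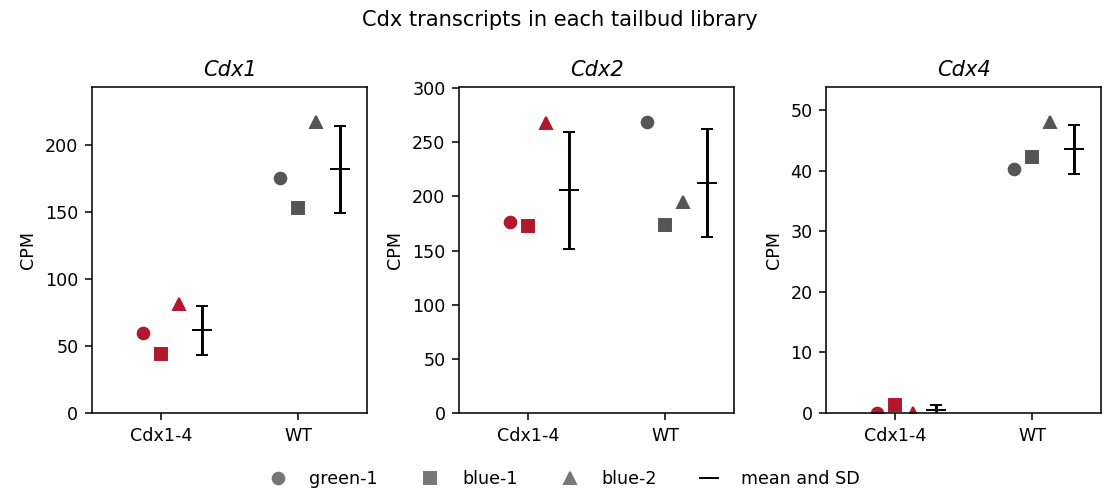
CPM of Cdx1, Cdx2 and Cdx4 in each Cdx1-4 and WT tailbud library, with each symbol a library tag and black marks the mean and SD of 3 libraries. Cdx4 is at 0 to 1 count in Cdx1-4, Cdx1 is lower in all 3 Cdx1-4 libraries, and the Cdx2 values of the groups overlap.

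Beyond the Cdx genes, few transcripts were called, which does not show that the others were unchanged. In all 8 of 6003 tested genes were called at an adjusted p below 0.05 (0.133%), of which 6 were lower (0.1%) and 2 higher (0.0333%) in Cdx1-4. At an unadjusted p below 0.05 there were 458 genes (7.63%), 233 higher and 225 lower. In 784 genes (13.1%) the libraries of the groups did not overlap. Besides Cdx1 and Cdx4 the called genes described here are Frzb, Tecr and Ube2l6, which were lower, and Meg3 and AA465934, which were higher.

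Frzb, a secreted Wnt antagonist of the Sfrp family, had 63.7, 44.2 and 54.1 CPM in Cdx1-4, against 158, 105 and 109 CPM in WT. All 3 Cdx1-4 libraries were below all WT libraries, and WT green-1 was the highest. The log2 difference was -1.26 (-1.69 to -0.83; edgeR adjusted p = 4.2e-04), or 41.8% of WT; Triple minus WT was -2.07 (edgeR adjusted p = 1.1e-07). Without the WT green-1 library, the edgeR adjusted p of Frzb was 0.121 (log2 difference -0.99), with only the blue libraries 0.158 (-1.14), and with counts thinned to the smallest library total 0.0652 (-1.11).

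Tecr, the enoyl reductase of very long chain fatty acid elongation, had 474, 441 and 485 CPM in Cdx1-4, against 866, 617 and 730 CPM in WT. The groups did not overlap, with a WT spread (SD 125) above that in Cdx1-4 (SD 22.9). The log2 difference was -0.68 (-0.91 to -0.44; edgeR adjusted p = 8.3e-04); Triple minus WT was -0.51 (edgeR adjusted p = 0.0059). Without WT green-1 the edgeR adjusted p of Tecr was 0.093 and with the blue libraries alone 0.336. Ube2l6, an E2 conjugating enzyme of ubiquitin and Isg15, had 229, 155 and 160 CPM in Cdx1-4, against 283, 293 and 306 CPM in WT. Its log2 difference was -0.68 (-0.99 to -0.37; edgeR adjusted p = 0.0497), at the threshold: it was called under 4 of the 16 alternatives of the fit. Leaving out any 1 of the 6 libraries but Cdx1-4 green-1 ended the call of Ube2l6, with an edgeR adjusted p of 0.102 to 0.312. In Triple tailbuds it differed from WT by -0.07 on the log2 scale (edgeR adjusted p = 0.95).

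Meg3 (12:109540996-109571729), an imprinted non-coding RNA made from the maternal allele, had 344, 373 and 270 CPM in Cdx1-4, against 194, 214 and 179 CPM in WT. The lowest Cdx1-4 library lay above the highest WT library. The log2 difference was 0.76 (0.47 to 1.06; edgeR adjusted p = 0.0029) and Triple minus WT was 0.38 (edgeR adjusted p = 0.26). Without WT green-1 the edgeR adjusted p of Meg3 was 0.0597, and with the blue libraries alone 0.351. AA465934, annotated as a long non-coding RNA at 11:83291699-83294637, had 102, 194 and 168 CPM in Cdx1-4, against 87.9, 50.1 and 53.1 CPM in WT. The groups did not overlap, yet the green libraries differed by 0.21 on the log2 scale and the blue ones by 1.82. The log2 difference over all was 1.17 (0.69 to 1.64; edgeR adjusted p = 0.0118), and AA465934 lost its call without Cdx1-4 blue-1 (edgeR adjusted p = 0.0683), Cdx1-4 blue-2 (0.0895), WT blue-1 (0.0923) or WT blue-2 (0.0742), with log2 differences of 0.94 to 1.11. With the shared column tag as a block its log2 difference was 1.14 (edgeR adjusted p = 0.11). Its locus overlaps AI450353 and Snord7, so that reads of these genes may not be told apart. The green and blue libraries differed by -0.87 and -0.54 for Tecr, by -0.31 and -0.93 for Ube2l6, and by 0.83 and 0.73 for Meg3, on the log2 scale.

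**Figure D2:**
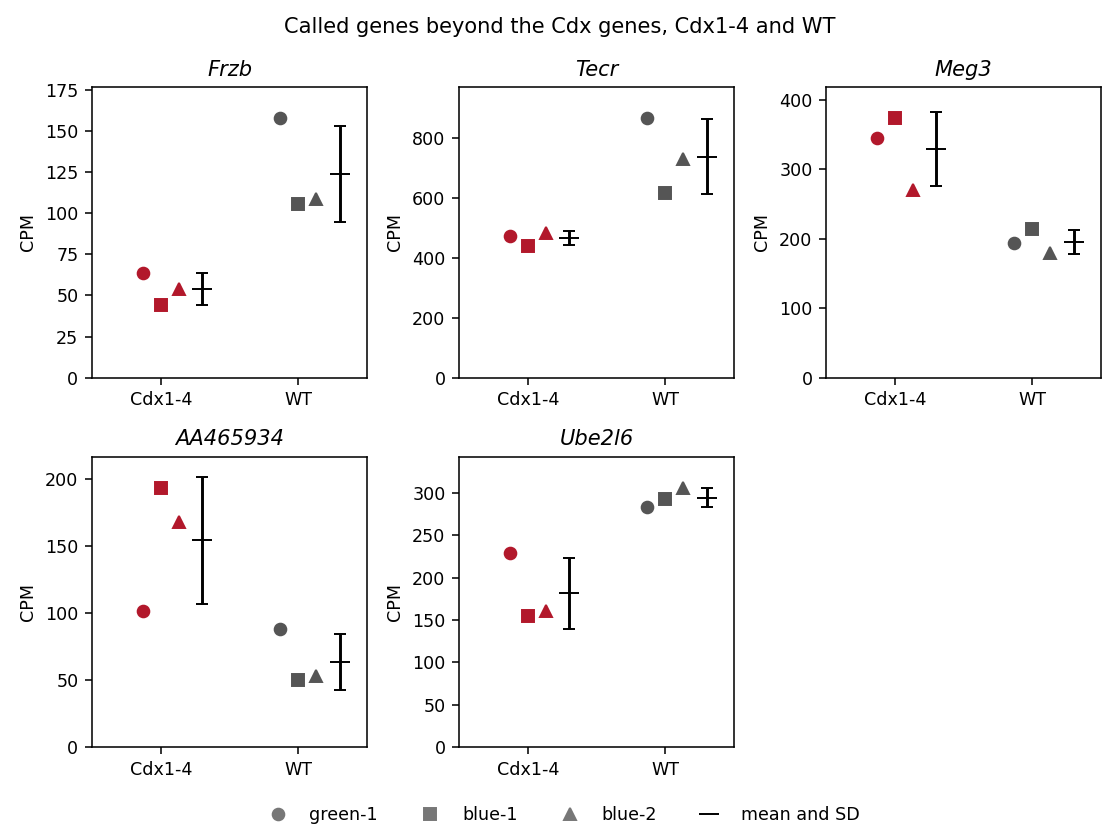
CPM of Frzb, Tecr, Meg3, AA465934 and Ube2l6 in each Cdx1-4 and WT library, with the mean and SD of 3 libraries. Frzb is at 44.2 to 63.7 CPM in Cdx1-4 and 105 to 158 CPM in WT, and AA465934 is nearest between the groups in the green libraries.

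Next to the threshold, Atp6v0a1, a subunit of the vacuolar proton pump, differed by -0.92 (edgeR adjusted p = 0.057) and Mybl2, a cell cycle transcription factor, by -0.88 (edgeR adjusted p = 0.079). Kcnq1ot1, an imprinted antisense RNA, had 77.3, 62.2 and 58.2 CPM in Cdx1-4, against 39.1, 31.6 and 25.3 CPM in WT, and missed the threshold (log2 difference 0.99; edgeR adjusted p = 0.117). Stmn1, which destabilises microtubules, differed by -0.43 (edgeR adjusted p = 0.111), with non-overlapping groups at 833 ± 22.2 CPM in Cdx1-4 and 1125 ± 101 CPM in WT (SD, n = 3 each). Isoc1 differed by 1.24 and Trappc9 by 1.08 (edgeR adjusted p = 0.128 and 0.213).

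The data also bound the difference between these libraries for genes that were not called. If the libraries of a group are not separate embryos, the intervals do not bound a difference between genotypes. A 95% interval was computed for each log2 difference, and a gene was counted within a fold when its whole interval lay inside it. The interval lay within 2-fold of WT for 4962 of 6003 genes (82.7%) and within 1.5-fold for 2265 (37.7%). By 2 one-sided tests adjusted over all genes, 5261 (87.6%) were within 2-fold and 1980 (33%) within 1.5-fold. For the median gene the interval reached 1.60-fold, and at the 90th percentile 2.21-fold. Of the 5995 genes not called, 4960 had an interval within 2-fold. In 1041 genes it reached beyond 2-fold; 813 of these intervals held 0 and 6 genes were among the called.

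How small a change could be bounded followed the level of the gene. Below 20 CPM, 30.7% of 407 genes were within 2-fold and 0% within 1.5-fold. From 20 to 50 CPM the shares were 70.7% and 4.4% of 2364 genes, and from 50 to 100 CPM 96.5% and 45% of 1399. From 100 to 200 CPM they were 98.8% and 75.5% of 955 genes, from 200 to 500 CPM 99.3% and 90.4% of 571, and from 500 CPM 99.3% and 96.1% of 307. Only 43 genes had an estimate beyond 2-fold, 4 of them called, and 350 one beyond 1.5-fold. The interval lay entirely beyond 2-fold in 2 genes, Cdx1 and Cdx4.

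**Figure D3:**
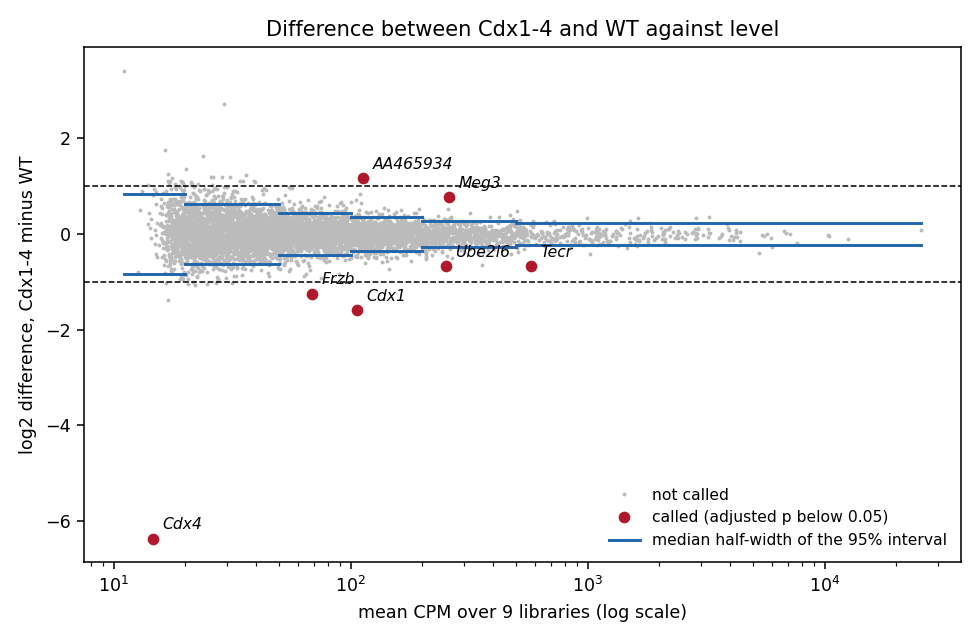
Log2 difference, Cdx1-4 minus WT, of tested genes against their mean CPM over 9 libraries on a log scale; red points are the called genes described in the text, dashed lines 2-fold, and blue lines the median half-width of the 95% interval in each level range. The half-width is 0.84 below 20 CPM and 0.22 from 500 CPM, and Cdx4 stands lowest.

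**Figure D4:**
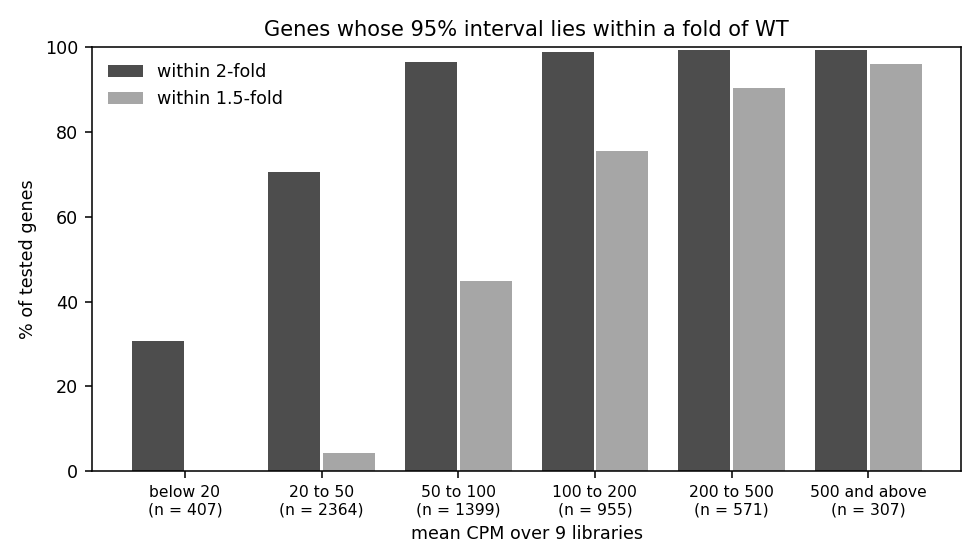
Share of tested genes whose 95% interval lies within 2-fold (dark bars) and within 1.5-fold (light bars) of WT, by mean CPM over 9 libraries. The share within 2-fold is 30.7% below 20 CPM and 99.3% from 500 CPM.

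Hox genes specify position along the axis, and the central groups are known targets of Cdx factors. Of 15 listed genes of Hox groups 5 to 9, 8 were tested and 0 were called; 7 had a negative log2 difference, with a median of -0.24 against 0.0027 over all tested genes. Of the 8, 1 had an unadjusted p below 0.05, against 7.63% of all tested genes. At 0.133% called over all tested genes, 0 calls among 8 are no result about these genes, nor are 0 calls in the lists below. For scale, 174 of the 6003 genes (2.9%) were called between Triple and WT, among them 6 of these 8. Hoxb9 had 129, 198 and 141 CPM in Cdx1-4, 2.72, 2.44 and 12.1 CPM in Triple, and 166, 198 and 275 CPM in WT. Cdx1-4 and WT libraries overlapped and the Triple libraries lay below both. The Cdx1-4 minus WT log2 difference was -0.41 (-0.79 to -0.02; edgeR adjusted p = 0.63) and Triple minus WT -4.97. Tested directly, the Triple minus Cdx1-4 difference of Hoxb9 was -4.57 with an edgeR adjusted p of 1.4e-10. Hoxb8, whose promoter is shown above, had 145, 149 and 129 CPM in Cdx1-4, 16.3, 9.77 and 24.3 CPM in Triple, and 126, 166 and 232 CPM in WT; the Cdx1-4 minus WT difference was -0.25 (-0.61 to 0.12) and Triple minus WT -3.26. The intervals of 6 of the 8 genes lay within 2-fold, and those of Hoxc8 (-1.51 to 0.64) and Hoxb5 (-1.09 to 0.06) did not. Hoxd9 and Hoxa5 differed by -0.24 and 0.23 in Cdx1-4, against -2.57 and -2.72 in Triple.

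Of Hox groups 1 to 4, 10 of 12 genes were tested and 0 called, with 6 above and 4 below 0 and a median of 0.05. Of Hox groups 10 to 13, 7 genes were in the table and 0 could be tested; together they summed to 0 to 12.2 CPM in Cdx1-4 and 7.58 to 9.77 CPM in WT.

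Streak and axial progenitor genes, which maintain the stem population of the tailbud, had 15 tested members of 24, 0 called. Of these, 12 were below and 3 above 0, with a median of -0.13, and 13 intervals lay within 2-fold and 7 within 1.5-fold. Over all tested genes 2974 were below and 3029 above 0, with 82.7% of intervals within 2-fold and 37.7% within 1.5-fold. Sall4 differed by -0.19 (-0.40 to 0.01), Lin28a by -0.13 (-0.34 to 0.08) and Grsf1 by 0.15 (-0.12 to 0.41). Wnt3a, a ligand that sustains tailbud progenitors and was named after its values were seen, had 12, 14 and 3 counts in Cdx1-4 against 19, 11 and 10 in WT; its log2 difference of -0.77 (-1.60 to 0.06) is not bounded within 2-fold. Tbx6, which specifies presomitic mesoderm, had 129, 162 and 162 CPM in Cdx1-4, 59.9, 41.5 and 50.3 CPM in Triple, and 161, 174 and 149 CPM in WT. Cdx1-4 minus WT was -0.10 (-0.43 to 0.22) and Triple minus WT -1.68 for Tbx6.

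**Figure D5:**
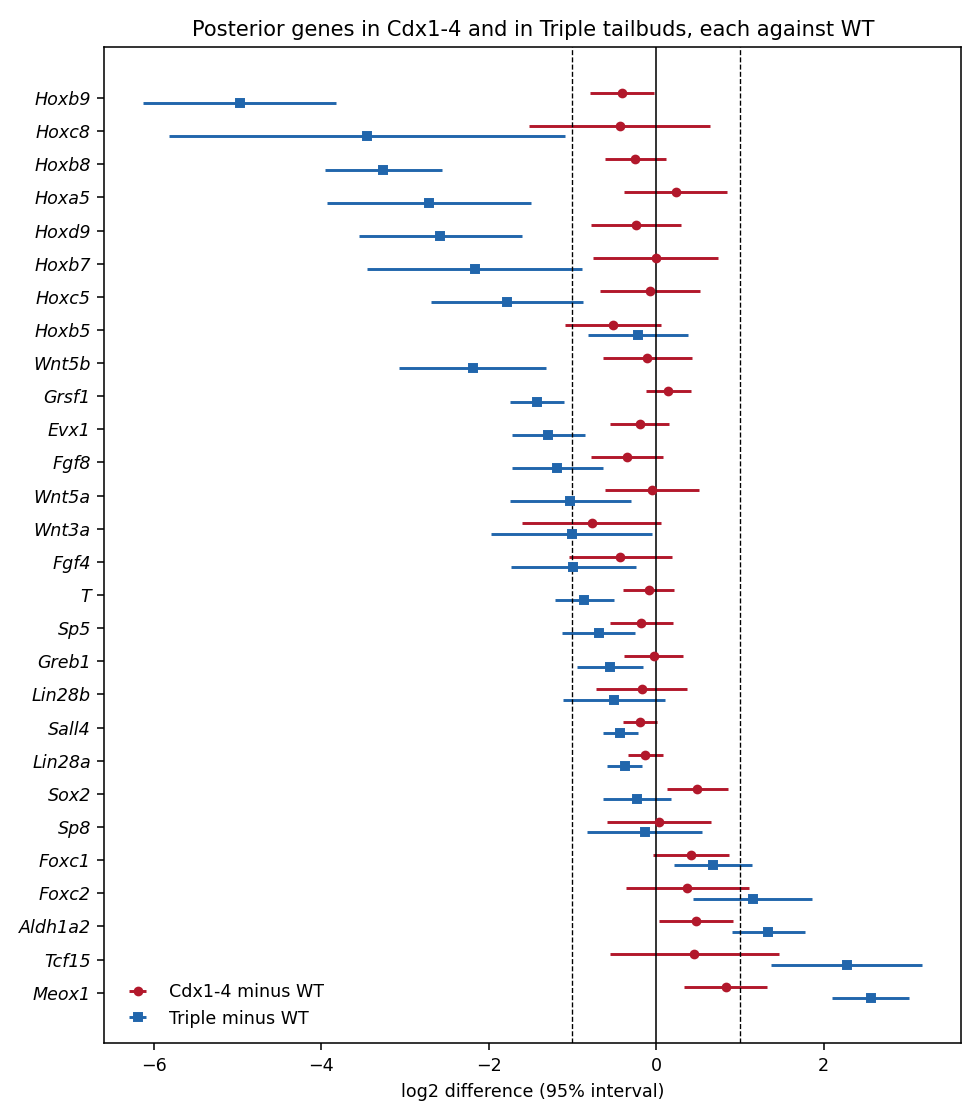
Log2 differences with 95% intervals for tested Hox genes of groups 5 to 9, streak genes and formed somite genes, Cdx1-4 minus WT in red circles and Triple minus WT in blue squares; dashed lines are 2-fold, and both share the WT libraries. Hoxb9 is at -0.41 in Cdx1-4 and -4.97 in Triple.

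Of 16 listed genes of formed somites 5 could be tested, and 0 were called. The 5 estimates lay above 0 with a median of 0.46, against 3029 of 6003 estimates above 0 over all tested genes. Meox1, a homeobox gene of the somite, had 65.1, 58.1 and 79.0 CPM in Cdx1-4, 226, 249 and 192 CPM in Triple, and 33.0, 47.5 and 35.4 CPM in WT. The Cdx1-4 and WT libraries did not overlap, but the log2 difference of 0.83 missed the threshold (edgeR adjusted p = 0.27). Triple exceeded Cdx1-4 by 1.74 (edgeR adjusted p = 1.2e-09). Aldh1a2, which makes retinoic acid, had 492, 281 and 516 CPM in Cdx1-4, against 310, 290 and 316 CPM in WT, with the library Cdx1-4 blue-1 below every WT library. Its log2 difference was 0.48 (0.04 to 0.92; edgeR adjusted p = 0.60), and without that library Aldh1a2 was called (0.72, edgeR adjusted p = 0.0056). The 11 genes of the list summed to 467 to 726 CPM in Cdx1-4 and 433 to 460 CPM in WT. Of presomitic and clock genes, 11 were tested and 0 called, with a median of -0.09 and 8 intervals within 2-fold. 

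Signalling lists are given by their calls and intervals. At 0.133% called over all tested genes, 0 calls in a list of this size is no result about the list. The lists were chosen with earlier results of these data known, so the call of Frzb, Tecr or Meg3 is no result about its list either. Of 6 tested secreted Wnt antagonists only Frzb was called, and the other 5 were estimated above WT, Sfrp1 by 0.21 (-0.14 to 0.57) and Dkk1 by 0.58 (0.01 to 1.15; edgeR adjusted p = 0.64). All 16 tested Wnt feedback and Tcf/Lef genes had an interval within 2-fold and 10 within 1.5-fold, and 0 were called; Ctnnb1, the transcriptional effector of the pathway, differed by 0.12 (-0.10 to 0.33). Of 12 tested Wnt ligand, R-spondin and receptor genes, 0 were called and 11 lay within 2-fold, and of 13 Fgf genes 0 and 8. Retinoic acid genes had 0 of 10 called and Bmp and Nodal genes 0 of 8, with medians of 0.04 and 0.13. Fatty acid elongation genes, of which Tecr is a member, had 1 of 13 called, with 7 above and 6 below 0 and a median of 0.08. Hsd17b12, an enzyme of the same elongation cycle, differed by -0.54 (edgeR adjusted p = 0.53) and was named after its values were seen. Imprinted genes had 1 of 18 called, Meg3, with a median of 0.01 and 16 intervals within 2-fold.

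Cell cycle genes had 28 of 29 intervals within 2-fold, 23 within 1.5-fold, 0 calls and a median of 0.02. Over all tested genes the shares were 82.7% and 37.7%, and they rose with level, to 96.5% and 45% from 50 to 100 CPM. The counts in this paragraph are thus bounds on single genes and no result about the lists. Cdk4 differed by 0.01 (-0.20 to 0.23) and Pcna by 0.08 (-0.15 to 0.30); Bub1, a spindle checkpoint kinase named after its values were seen, differed by 0.99 (0.34 to 1.64; edgeR adjusted p = 0.31). All 15 hypoxia and glycolysis genes lay within 2-fold, with a median of -0.11, and 0 were called; Gapdh differed by -0.11 (-0.29 to 0.07). Of 12 immediate early and heat shock genes 10 lay within 2-fold, and of 8 p53 targets 7; 0 were called in each. Epiblast and pluripotency genes had 10 of 11 within 2-fold, 0 called, with Sox2 at 168 ± 11.9 CPM in Cdx1-4 and 116 ± 36.6 CPM in WT (SD, n = 3 each; log2 difference 0.49, edgeR adjusted p = 0.43).

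Lists of other cell types were read beside these values. Neural crest genes summed to 49.9 to 54.2 CPM in Cdx1-4, 182 to 206 CPM in Triple and 26.4 to 37.9 CPM in WT; Sox10 held 5, 4 and 4 counts in Cdx1-4 against 4, 0 and 1 in WT, and Sox9 15, 8 and 11 against 7, 1 and 5. Col2a1, a cartilage and notochord collagen, held 9, 10 and 4 counts in Cdx1-4 against 1, 3 and 2 in WT (log2 difference 1.64, 0.26 to 3.02; edgeR adjusted p = 0.47). Visceral endoderm, yolk sac, trophoblast and decidua genes summed to 1547 to 2287 CPM in Cdx1-4 and 1531 to 2492 CPM in WT, and the decidual hormone gene Prl8a2 held 10, 0 and 3 counts in Cdx1-4 against 1, 0 and 0 in WT. Neural progenitor genes summed to 1440 to 1598 CPM in Cdx1-4 and 1564 to 1822 CPM in WT, and cardiac and lateral plate genes to 493 to 644 CPM in Cdx1-4 and 523 to 646 CPM in WT. Of the tested members of these lists, 0 were called. Among tested genes, 8 of 10 for endoderm, 2 of 4 for notochord, 6 of 8 for allantois, 2 of 4 for blood and vessels and 1 of 1 for sex-linked genes had an interval within 2-fold, and 0 were called. Xist held 5, 6 and 9 counts in Cdx1-4 against 11, 0 and 1 in WT, and Ddx3y, a Y-linked gene, 33, 21 and 10 against 27, 18 and 13, so that all 6 libraries held Y-linked transcripts. Their part in the results was not tested.

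Genes near the changed Cdx loci were listed for a region of 5 Mb on either side. Around Cdx4, 0 of 30 tested neighbours were called, and around Cdx1, 0 of 22. At 0.133% called over all tested genes, these counts are no result about the neighbours. Chic1, 56.9 kb from Cdx4 and named after its values were seen, had 51.5, 82.9 and 58.2 CPM in Cdx1-4, against 23.2, 52.7 and 35.4 CPM in WT. The groups overlapped, and the log2 difference of 0.93 missed the threshold (edgeR adjusted p = 0.276). In Triple tailbuds, which held 0 Cdx4 counts, Chic1 had 13.6, 31.7 and 29.5 CPM. Isoc1 on the chromosome of Cdx1, 2358 kb away, had 29.8, 48.4 and 54.1 CPM in Cdx1-4, against 17.1, 21.1 and 17.7 CPM in WT, with no overlap. Frzb and Ube2l6, both lower, lie 4375 kb apart on chromosome 2. Of 24 tested neighbours of Frzb only Ube2l6 was called, and the median log2 difference of the 24 was 0.187. Of 16 around Ube2l6 only Frzb was called, with a median of 0.202. A link between the 2 genes was not tested.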

How the data were processed

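The deposited table holds raw counts per gene for 9 tailbud libraries, mapped to mm10 per the labels; the aligner, the counter and the handling of molecular identifiers are not given in the sources used here. The 8 spike-in entries, with 1 count in all, were left out. GRCm38 positions were found by symbol for 99.77% of tested genes.

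Counts were fitted with edgeR 4.0.16 in R 4.3.3 (limma 3.58.1), glmQLFit with robust estimation and glmQLFTest, TMM scaling, 1 mean per group over Cdx1-4, Triple and WT, after filterByExpr. The residual degrees of freedom were 6 and the common biological coefficient of variation 0.0995. Genes with a Benjamini-Hochberg adjusted p below 0.05 were called. Intervals of log2 differences use the model's standard error and a 95% t quantile with the fit's degrees of freedom. The median of these was 48.3 per gene, and a prior pooled across genes had a median of 42.3. The bounds thus rest mostly on spread shared between genes, and on all 9 libraries, Triple included. Intervals on pooled counts and the floor of 3 counts cover counting error only. The alternatives included DESeq2 1.42.0 and limma voom. The method was tested on data simulated under the fitted model with independent libraries. That test cannot show whether the intervals hold for the libraries compared here.

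The sets from which genes were named are the called ones, T and the 3 Cdx genes, and the 10 with the next smallest p. Further sets are the tested Hox genes of groups 5 to 9 and the 3 most abundant tested members of each of 29 gene lists. Not every gene of these sets is described, and some of the 10 left out had a smaller p than Trappc9. Other genes in the text, among them list members given by their values, were chosen after their values were seen. The comparison, the members and the lists were chosen with earlier results of these data known. Results of a called gene and of a list member are not reported here.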

Additional observations from a re-analysis of the deposited data

How the results depend on the processing

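Over the 16 alternatives, Cdx1 was called in each and Cdx4 in the 14 that gave it a value, all in the same direction. The number of called genes was 7 with RLE scaling, library totals alone, DESeq2, voom, colour as a covariate or the blue libraries alone, 12 with no filter, 9 with only the Cdx1-4 and WT libraries, and 8 with counts thinned to the smallest total. Leaving out each library in turn gave 6 to 11 called genes, 5 to 7 lower and 1 to 4 higher. Of these, 1 was higher without Cdx1-4 blue-2 or WT green-1 and 4 without Cdx1-4 blue-1. The genes called changed as well: 4 of the 8 main calls remained without WT green-1, 5 with the blue libraries alone and 6 with thinned counts. Erdr1, Ube2m and Atp6v0a1 were among the genes called only under alternatives, each in more than 1. The labels do not say whether the shared column tags pair the samples. Same-tag Cdx1-4 and WT libraries correlated at 0.00663, 0.0537 and -0.000282 in their deviations from the group means. Such values over all tested genes cannot exclude pairing, nor an effect of the tag on single genes. A replicate block gave 6 called genes, 1 of them higher. The genes within 2-fold were 4058 to 4725 when a library was left out (66.5% to 74% of those tested, against 82.7%), and those within 1.5-fold 1512 to 1924. DESeq2 on all 9 libraries placed 4086 of 6003 genes (68.1%) within 2-fold and 1528 (25.5%) within 1.5-fold, and voom 5014 (83.5%) and 2332 (38.8%). With the blue libraries alone 3607 of 5882 (61.3%) and with thinned counts 3660 of 5261 (69.6%) lay within 2-fold, and with no filter 5241 of 14602 (35.9%). Within 1.5-fold there were 1160 genes with the blue libraries alone and 1373 with thinned counts. Without Cdx1-4 blue-1 the edgeR adjusted p of Ube2l6 was 0.202. The green libraries alone give no test.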
